A study of Homo sapiens with 12 samples.

Results

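The comparison described here asks what an HDAC3 inhibitor changed in lymphoma cells that were already receiving 5-azacitidine. The cells were OCI-Ly7, an established human line derived from a diffuse large B-cell lymphoma and widely used as a model of the germinal-centre form of that disease. All 4 groups of the study grew for 5 days. The azacitidine group received 100 nM 5-azacitidine every day from day 0 to day 4 and no inhibitor (3 libraries). The combination group received the same azacitidine and, on days 2 and 4, 15 µM of the inhibitor, whose compound name the labels do not give (3 libraries). The vehicle group received neither agent and the inhibitor group received the inhibitor alone, with 3 libraries each. Poly(A) RNA was sequenced from every sample. The comparison was defined by the treatment labels alone and uses 6 of the 12 libraries, and 17869 of the 78892 annotated genes passed a filter on low counts and were tested. A single cell line at 1 dose of each agent and 1 time of harvest was measured, and since no label ties a group's 3 libraries to separate cultures, the p-values measure only the spread between these samples, which may be technical.

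HDAC3 is a histone deacetylase that works inside co-repressor complexes of the NCoR family, which sequence-specific repressors bring to promoters and enhancers, where acetyl groups are then removed from histones and transcription is held down. In germinal-centre B cells a chief partner of these complexes is BCL6, which keeps cell-cycle brakes, antigen presentation, plasma-cell differentiation and signalling genes low while the cells divide. 5-azacitidine resembles cytidine, enters RNA and DNA, and binds DNA methyltransferases there so that they are lost, after which daughter strands carry less methylation.

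The 6 libraries held between 35947872 and 36337086 assigned counts each, so that 3 counts correspond to 0.0826 to 0.0835 CPM, counts scaled to a library of 1000000. Between 24964 and 25397 genes had a count in the azacitidine libraries and between 27044 and 27492 in the combination libraries. Azacitidine replicate 1 stood apart from its group. Its mitochondrially encoded genes took 13.79% of counts against 10.01% and 10.25% in the other azacitidine libraries, and combination replicate 3, at 15.29%, was the highest of the combination libraries (12.91% in the next). The B-cell identity of the cells was visible in every library, with MS4A1 (CD20) at 970, 999 and 973 CPM in the azacitidine libraries and CD79A at 729, 680 and 703 CPM, before TMM scaling.

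Adding the inhibitor changed a majority of the genes tested. 5123 genes were called higher in the combination (28.7% of the genes tested) and 4491 lower (25.1%), at an adjusted p below 0.05 in edgeR's quasi-likelihood test with Benjamini-Hochberg adjustment, for 9614 in all (53.8%). Large changes went mostly one way: 2349 genes (13.1%) were at least 2-fold higher and 195 (1.09%) at least 2-fold lower. Restricted to genes of at least 5 CPM in 3 or more libraries, those counts were 615 and 14. Without azacitidine replicate 1 and combination replicate 3 together, 8585 genes were called. In 10218 genes (57.2%) the 3 combination libraries did not overlap the 3 azacitidine libraries.

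Falls were more frequent among genes of high expression, and the share of rises was highest between 0.5 and 5 CPM. Among the 3047 genes whose mean over all 12 libraries was under 0.5 CPM, 826 were higher (27.1%) and 85 lower (2.79%), and the median log2 fold change was 0.37. Of the 4808 genes between 0.5 and 5 CPM, 1721 were higher (35.8%) and 430 lower (8.94%). Genes of low mean can pass the filter through only the groups in which they are high, and low counts limit which falls can be called. How far this shapes the shares and the median at low levels was not tested. Among the 4039 genes of 50 CPM or more, 871 were higher (21.6%) and 1940 lower (48.0%), and the median was -0.12. Of 285 tested genes with at most 3 counts in every azacitidine library, 282 were higher in the combination, a group that could pass the filter only through libraries in which it was high, and 24 of the 285 reached 1 CPM or more in all 3 combination libraries. In bulk RNA a change in the number of cells that express a gene and a change in RNA per cell cannot be told apart. Falls were also more frequent among genes whose transcripts are poor in G and C: of genes at 5 CPM or more, 1186 of the 1968 with 27.8% to 40.6% GC were lower, against 570 of the 1968 with 57.7% to 73.2% GC. The 6 libraries differed in how counts followed GC content, with slopes of -0.101 to -0.0474 log2 units per 10 points of GC in the azacitidine libraries and 0.0136 to 0.128 in the combination libraries. With a GC offset for each library, a setting chosen after the data were seen, 5894 genes were higher and 3619 lower, so that 62.0% of calls were rises in place of 53.3%. That offset moved the median of all genes to 0.08 from 0.01. The part of the GC trend in the falls was not tested otherwise.

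**Figure D1:**
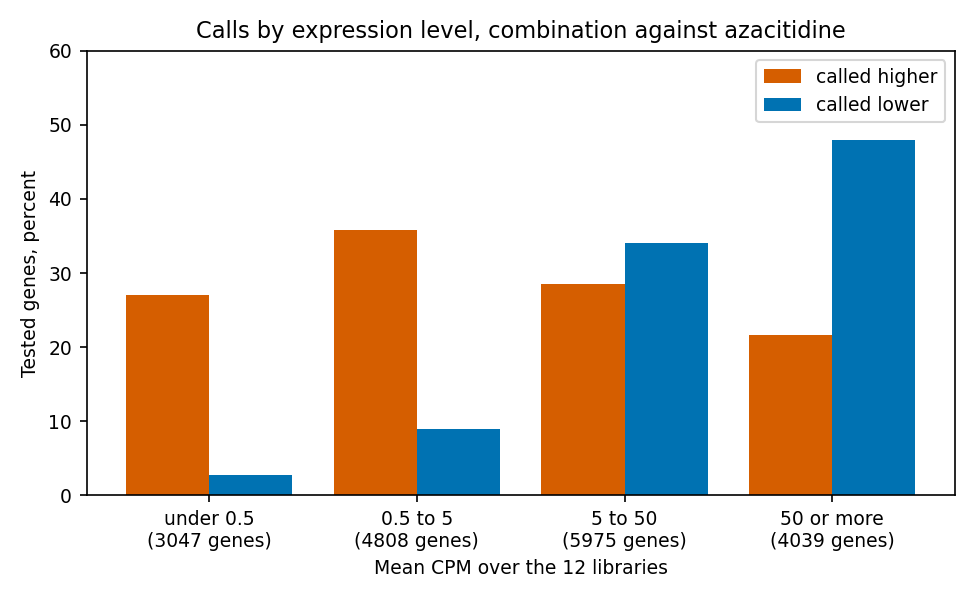
Share of tested genes called higher or lower in the combination than in azacitidine (y axis, percent) by mean expression over the 12 libraries (x axis, CPM, number of genes in parentheses). Calls of higher expression reach 35.8% between 0.5 and 5 CPM, and calls of lower expression reach 48.0% at 50 CPM or more.

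The inhibitor's target and its complex came first. HDAC3, the catalytic subunit, stood at 83.4, 84.3 and 89.5 CPM with azacitidine and at 92.2, 93.1 and 93.0 CPM in the combination. Those groups did not overlap, but the log2 difference of 0.11 (SE 0.05) had an adjusted p of 0.0635. It passed the threshold with the filter of 5 CPM in 3 or more libraries (0.18, adjusted p 0.00204), with DESeq2 (0.11, adjusted p 0.0463), with a block for the number in the library names (0.13, adjusted p 0.0397), without mitochondrially encoded genes (0.13, adjusted p 0.0419) and without azacitidine replicate 3 (0.14, adjusted p 0.0424). Of the 7 genes of the co-repressor complex, 4 were higher and 1 lower. CORO2A, an actin-binding component of the NCoR complex, rose from 4.65 ± 0.725 to 18.3 ± 0.545 CPM (SD, n = 3 in each group). TBL1X and TBL1XR1, the exchange factors that couple the complex to its partners, rose by 0.47 and 0.28 on the log2 scale. NCOR1, a scaffold of the complex, was at 94.3, 92.7 and 91.5 CPM with azacitidine and at 75.7, 84.8 and 87.7 CPM in the combination (-0.17, adjusted p 0.0178). That call was lost without azacitidine replicate 1 (adjusted p 0.0595), without combination replicate 1 (0.138) and with the GC offset (0.114).

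Among the 15 other deacetylase genes tested, 7 were higher and 2 lower. HDAC9, a class II deacetylase, rose from 25.3, 24.5 and 24.4 CPM to 39.2, 45.8 and 44.1 CPM. HDAC7 and HDAC5, of the same class, rose by 0.54 and 0.64 on the log2 scale, whereas the NAD-dependent deacetylase SIRT1 fell from 54.0 ± 1.09 to 33.4 ± 1.27 CPM. The enzymes that place or read histone acetylation went the other way as a list: 13 of 18 were lower and 3 higher, with a median log2 fold change of -0.31 against 0.01 over all tested genes. Among genes at 50 CPM or more the median was -0.12 and 48.0% were lower, and the list was not compared by level. KAT2B, the acetyltransferase PCAF, fell by 0.67 and ATAD2, an acetyl-lysine reader, by 0.68 on the log2 scale. Of 20 genes of polycomb and histone methylation, 13 were lower and 1 higher, with falls of 0.38 for SUZ12, a core subunit of PRC2, and 0.41 for SUV39H1, which methylates histone H3 in heterochromatin.

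Genes of the machinery that azacitidine acts on went in both directions. Of 16 DNA methylation genes, 5 were higher and 9 lower. Over all tested genes 28.7% were higher and 25.1% lower, with 48.0% lower at 50 CPM or more, and nothing is read from these counts. DNMT3B, a de novo methyltransferase, was at 19.7, 17.7 and 19.7 CPM with azacitidine and at 32.3, 30.8 and 35.6 CPM in the combination, with no overlap. DNMT3A, the other de novo enzyme, rose from 9.89 ± 1.18 to 15.9 ± 1.54 CPM (SD, n = 3 in each group). UHRF1, which guides maintenance methylation to newly copied DNA, fell from 247 ± 0.781 to 199 ± 5.01 CPM. DNMT1, the maintenance enzyme, overlapped between the groups, at 749, 670 and 687 against 775, 721 and 812 CPM. Its log2 difference of 0.13 (adjusted p 0.0357) lost the call without azacitidine replicate 2 or 3, combination replicate 1 or 3, vehicle replicate 1 or inhibitor replicate 3 (adjusted p from 0.0508 to 0.188). The call was also lost when only the libraries compared were fitted (adjusted p 0.0997) and with no filter on low counts (0.0592). The count of 5 higher genes fell to 3 without azacitidine replicate 2, azacitidine replicate 3 or combination replicate 1.

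**Figure D2:**
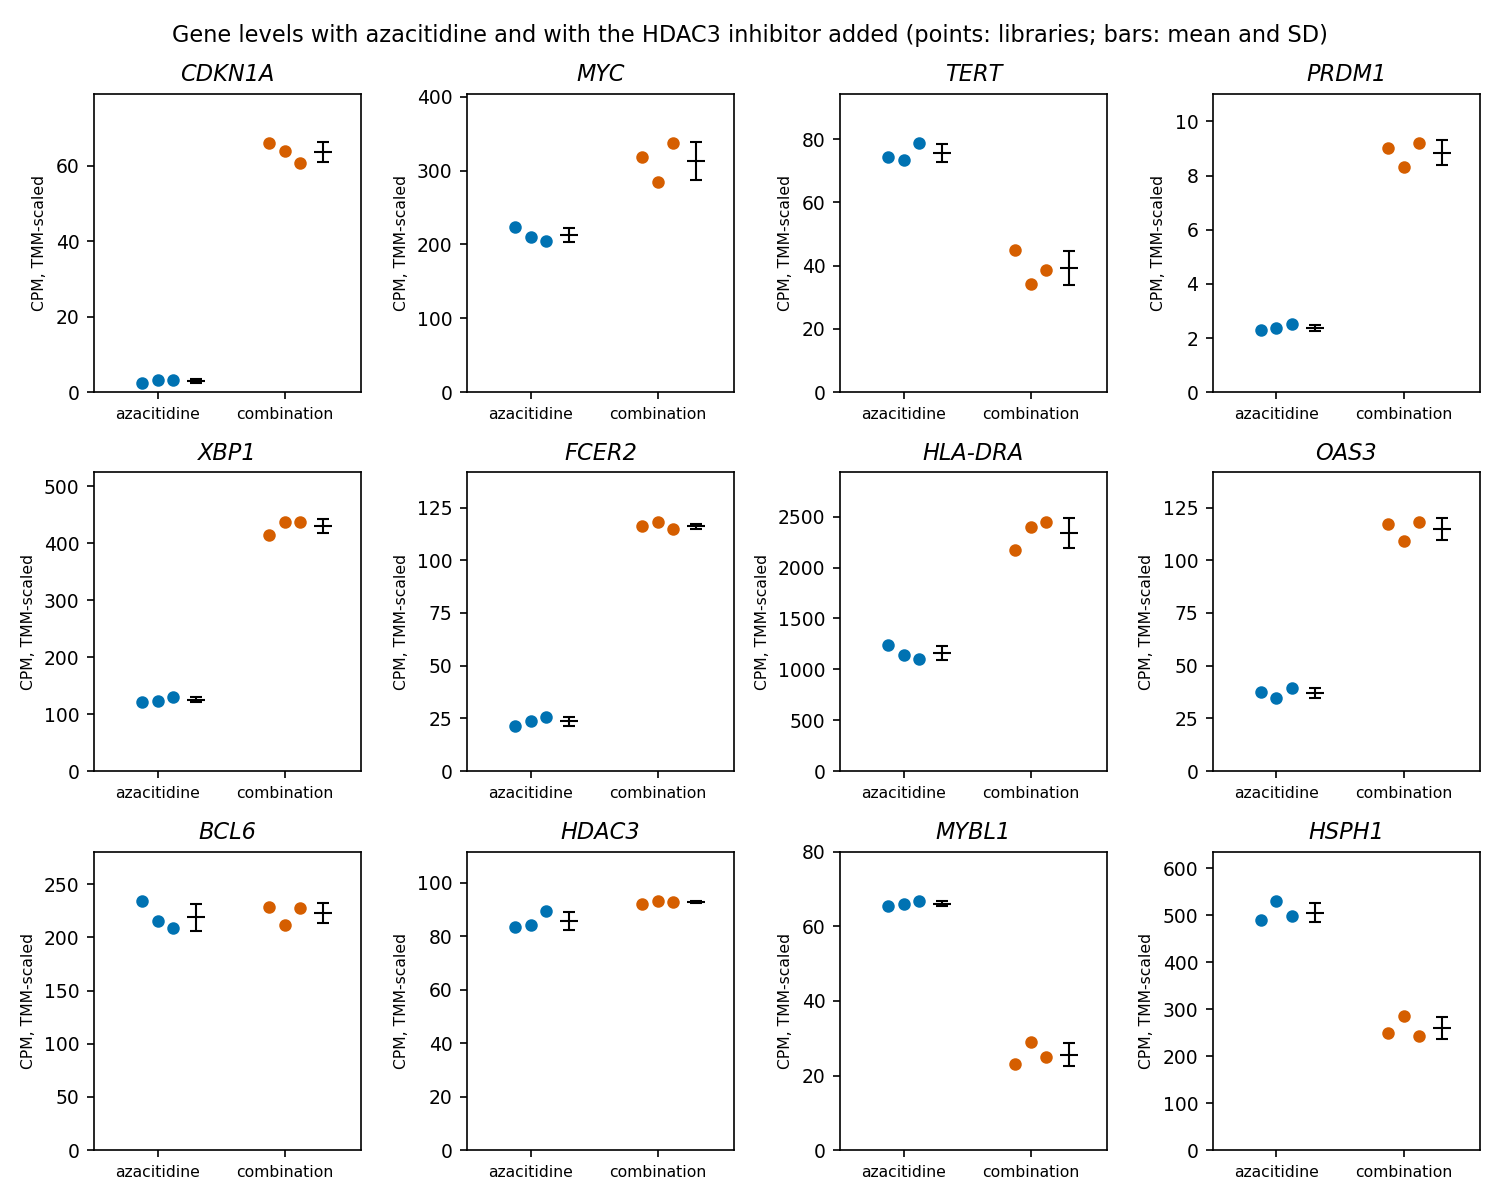
Level of 12 genes (y axis, TMM-scaled CPM) in the 3 azacitidine and the 3 combination libraries (x axis), with a point per library and the mean and SD beside them. The groups are separate for every gene shown except BCL6, and for HDAC3 the gap did not pass the test.

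The cell-cycle brake CDKN1A had the smallest p of the genes chosen for display. It encodes p21, which blocks cyclin-dependent kinases, and it is a known target of BCL6. With azacitidine it stood at 2.48, 3.14 and 3.25 CPM, and with the inhibitor added at 65.9, 63.9 and 60.7 CPM. The rise was 21.4-fold (log2 4.42, SE 0.10, adjusted p 4.15e-22), and the lowest combination library was far above the highest azacitidine library. Of 8 genes for inhibitors of cyclin-dependent kinases, 4 were higher and 1 lower, the latter lost without azacitidine replicate 3, combination replicate 1 or combination replicate 3. The higher ones included CDKN2D (p19), which rose 1.66-fold from 16.3, 18.6 and 18.6 CPM to 29.3, 30.8 and 28.6 CPM. All tested genes had 28.7% higher and 25.1% lower, and nothing is read from the counts of these 8 genes. The promoter of CDKN1A in the RefSeq table (GRCh38.p14, chr6:36678464-36678763, plus strand, 250 bases before to 50 after the annotated start) is shown because this gene leads the cell-cycle result. Capitals mark the GC box, GGGCGG on either strand, the motif of Sp and KLF factors.
CDKN1A: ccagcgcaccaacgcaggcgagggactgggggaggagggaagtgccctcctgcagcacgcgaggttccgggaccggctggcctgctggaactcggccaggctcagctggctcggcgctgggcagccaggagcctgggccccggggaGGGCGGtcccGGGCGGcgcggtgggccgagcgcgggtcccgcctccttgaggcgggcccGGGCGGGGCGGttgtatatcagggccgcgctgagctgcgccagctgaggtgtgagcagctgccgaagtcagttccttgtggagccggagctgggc
The window holds 4 GC boxes, the last pair overlapping by 1 base, and no other motif of those searched.

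Genes of cell division fell together. In the G2 and M phase list, 57 of 67 were lower and 1 higher, with a median log2 fold change of -0.33, and of 50 S-phase genes 40 were lower and 1 higher (2 without azacitidine replicate 1 or combination replicate 3), with a median of -0.31. These lists sit mostly among well-expressed genes, of which 48.0% of those at 50 CPM or more were lower. CENPF, a kinetochore protein, went from 225, 218 and 205 CPM to 105, 129 and 123 CPM. KIF18A, a mitotic kinesin, fell 1.92-fold and ASPM, a spindle-pole protein, 2.04-fold. Every combination library lay below every azacitidine library for each of these. In S phase, CCNE1 (cyclin E1), which drives entry, fell from 47.2 ± 1.06 to 25.5 ± 3.30 CPM, and UNG, which removes uracil from DNA, from 168 ± 7.57 to 97.6 ± 3.84 CPM (SD, n = 3 in each group). With the GC offset, 48 of the G2 and M genes and 38 of the S-phase genes were lower.

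DNA repair followed the same direction, with 29 of 39 genes lower and 2 higher (1 higher without combination replicate 1). For this list and the telomerase list below, the shares lower to set beside are 25.1% over all tested genes and 48.0% at 50 CPM or more. ATR, a kinase that signals stalled replication, fell from 53.4, 59.5 and 52.7 CPM to 25.7, 34.2 and 31.5 CPM. BRCA2, which acts in homologous recombination, fell 1.61-fold. HELQ, a helicase that acts in repair of crosslinks, went from 131, 138 and 129 CPM to 54.9, 60.2 and 57.0 CPM (log2 -1.21, SE 0.05). It was among the 14 largest falls named, which required at least 5 CPM in the higher group and no overlap of libraries. TERT, the catalytic subunit of telomerase, went from 74.5, 73.3 and 78.7 CPM to 44.9, 34.1 and 38.6 CPM, a fall of 0.95 on the log2 scale (SE 0.07, adjusted p 1.01e-11). DKC1, which stabilises the telomerase RNA, fell by 0.44. Of the 15 telomerase and shelterin genes tested, 8 were lower. Without azacitidine replicate 1 or without combination replicate 3 only 5 of them were lower.

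MYC itself and the genes of ribosome production parted. MYC, the growth-promoting transcription factor, stood at 224, 210 and 205 CPM with azacitidine and at 318, 285 and 337 CPM in the combination, so that all 3 combination libraries were higher (log2 0.56, SE 0.06, adjusted p 4.74e-09). In the list of MYC and ribosome biogenesis genes, which includes MYC, 40 of 46 were nevertheless lower and 2 higher, with a median of -0.39. DDX21, a nucleolar helicase, went from 538, 585 and 530 CPM to 302, 365 and 326 CPM. TSR1, which matures the small ribosomal subunit, fell 1.65-fold, and WDR75, needed for transcription of ribosomal RNA, by 0.76 on the log2 scale.

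BCL6 messenger RNA did not differ detectably, at 234, 215 and 209 CPM with azacitidine and 229, 212 and 228 CPM in the combination (log2 0.02, SE 0.05, adjusted p 0.733). The 2 groups overlapped over nearly their whole range. Of 28 tested genes known as BCL6-repressed, 18 were higher and 7 lower, and the median log2 fold change was 1.05, although 3 of the 28 had at most 3 counts in every azacitidine library and so could pass the filter only by being higher elsewhere. FCER2 (CD23), the low-affinity IgE receptor of resting B cells, rose from 21.3, 24.0 and 25.6 CPM to 116, 118 and 115 CPM (log2 2.30, SE 0.06). CCR7, the chemokine receptor that leads B cells to T-cell zones, rose 19.9-fold from 0.543, 0.436 and 0.976 CPM to 12.8, 12 and 14.4 CPM. CR2 (CD21), a complement receptor that lowers the threshold of B-cell activation, rose 2.25-fold.

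Of 20 plasma-cell genes, 14 were higher and 2 lower (median 0.40). PRDM1, which encodes BLIMP1, the factor that commits B cells to the plasma-cell fate, went from 2.28, 2.37 and 2.50 CPM to 9.01, 8.32 and 9.19 CPM. XBP1, which expands the secretory pathway, went from 122, 123 and 130 CPM to 415, 437 and 437 CPM, a 3.43-fold rise. The groups were widely separate for both. TNFRSF13B (TACI), a receptor for BAFF and APRIL, rose by 1.29 on the log2 scale. Other plasma-cell markers did not follow: IRF4, a factor required for the fate, fell by 0.55, TNFRSF17 (BCMA) was at 0.07 with an adjusted p of 0.632, and SDC1 (CD138) reached at most 0.0554 CPM in any of the 6 libraries, below 3 counts. Among 26 germinal-centre genes, 11 were higher and 8 lower, with a median of 0.02. All tested genes had 28.7% higher, 25.1% lower and a median of 0.01, and nothing is read from the germinal-centre counts. MYBL1, a factor typical of dividing germinal-centre cells, fell from 65.4, 65.9 and 66.7 CPM to 23.1, 29 and 24.9 CPM. LMO2, another germinal-centre marker, instead rose 10.8-fold, from 1.22 ± 0.183 to 13.1 ± 1.82 CPM.

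Among genes of protein folding in the endoplasmic reticulum, a list that includes XBP1, 22 of 30 were higher and 3 lower (median 0.26). PDIA4, a disulfide isomerase, went from 315, 282 and 293 CPM to 486, 464 and 527 CPM, and HERPUD1, which acts in degradation from the endoplasmic reticulum, rose by 0.68. Among cytosolic chaperones of the heat shock response, 12 of 21 were lower and 2 higher. The shares over all tested genes were 28.7% higher and 25.1% lower. At 50 CPM or more 48.0% were lower, and neither list was compared by level. HSP90AA1, the inducible HSP90, went from 2917, 2943 and 2712 CPM to 1441, 1772 and 1545 CPM, and HSPH1 (HSP110) fell 1.95-fold. With the GC offset, 4 heat shock genes were higher and 12 lower.

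Both negative and positive regulators of B-cell receptor signalling rose. Of 31 genes, 16 were higher and 6 lower, where 28.7% and 25.1% of all tested genes were called. FCGR2B, the inhibitory Fc receptor of B cells, rose from 24.7, 25.6 and 27.8 CPM to 103, 101 and 99.7 CPM. PRKCB, the kinase that links the receptor to NF-kB, rose from 67.3 ± 1.78 to 192 ± 7.02 CPM. BANK1, an adaptor of the receptor, had 0 counts in all 3 azacitidine libraries and stood at 4.09, 5.01 and 3.54 CPM in the combination, at least 50.7-fold higher when 3 counts per library are taken as the limit. Among 20 B-cell identity genes 15 were higher and 2 lower. The Fc receptor-like genes led: FCRL3 rose 18.7-fold, from 1.96 ± 0.514 to 36.7 ± 1.34 CPM, and FCRL2 by 2.03 on the log2 scale. Without azacitidine replicate 1 the count of lower identity genes was 1.

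Genes of antigen presentation rose in both classes. Of 22 genes of MHC class II presentation, 16 were higher and 4 lower, with a median log2 fold change of 0.72. All tested genes had 28.7% higher and 25.1% lower. HLA-DRA, the invariant alpha chain of HLA-DR, went from 1239, 1140 and 1101 CPM to 2168, 2402 and 2445 CPM, and HLA-DPB1, a beta chain of HLA-DP, rose by 0.92. HLA-DMA, which helps load peptides, rose from 188, 182 and 197 CPM to 396, 395 and 389 CPM. All combination libraries were about level with each other and far above azacitidine. CIITA, the transactivator of class II genes, rose from 78.5 ± 6.11 to 108 ± 12.9 CPM (log2 0.46, SE 0.07, adjusted p 2.47e-06). For class I, 15 of 21 genes were higher and 3 lower (median 0.29), led by HLA-E, a ligand of NK-cell receptors, which rose from 187 ± 4.20 to 399 ± 14.4 CPM. HLA genes are close copies of one another and the authors split multiply mapped reads, so counts may be shared among them. The promoter of HLA-DMA (GRCh38.p14, chr6:32953048-32953347, minus strand) is shown as the class II gene of smallest p, with CCAAT boxes, the motif of NF-Y, in capitals on either strand.
HLA-DMA: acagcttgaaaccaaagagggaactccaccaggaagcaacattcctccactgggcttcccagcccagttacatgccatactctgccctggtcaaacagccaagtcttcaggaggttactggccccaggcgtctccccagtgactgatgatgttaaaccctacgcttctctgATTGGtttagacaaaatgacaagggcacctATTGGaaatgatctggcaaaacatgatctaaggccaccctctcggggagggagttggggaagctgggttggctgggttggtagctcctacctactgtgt
The window holds 2 CCAAT boxes, both read on the opposite strand as ATTGG, and only 3 CpG pairs.

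Of 60 interferon-stimulated genes tested, 40 were higher and 9 lower (median 0.56), and 3 of the 60 had at most 3 counts in every azacitidine library, so that they could pass the filter only through other groups. The shares over all tested genes were 28.7% higher and 25.1% lower. OAS3, a sensor of double-stranded RNA that activates RNase L, went from 37.5, 34.8 and 39.4 CPM to 117, 109 and 118 CPM (log2 1.62, SE 0.06, adjusted p 3.39e-18). IFI6, an interferon-inducible membrane protein, rose 3.82-fold from 5.77, 5.43 and 7.40 CPM. PARP9 and its partner DTX3L, an ubiquitin ligase pair that enhances interferon signalling, rose from 2.64 ± 0.263 to 16.3 ± 0.263 CPM and from 2.57 ± 0.202 to 10.8 ± 0.794 CPM. Their annotated spans overlap head to head on chromosome 3, and no strand setting is recorded in the count command, so reads of the pair may be mixed. Of the 3 annotated endogenous retroviral genes that could be tested, 1 was lower, a class whose many copies share reads. The promoters of OAS3 (chr12:112938224-112938523, plus strand) and DTX3L (chr3:122564088-122564387, plus strand), both GRCh38.p14, are shown because both hold the core of the interferon response element, searched on both strands as 2 copies of GAAA that stand 2 bases apart. That core and the GC box are in capitals.
OAS3: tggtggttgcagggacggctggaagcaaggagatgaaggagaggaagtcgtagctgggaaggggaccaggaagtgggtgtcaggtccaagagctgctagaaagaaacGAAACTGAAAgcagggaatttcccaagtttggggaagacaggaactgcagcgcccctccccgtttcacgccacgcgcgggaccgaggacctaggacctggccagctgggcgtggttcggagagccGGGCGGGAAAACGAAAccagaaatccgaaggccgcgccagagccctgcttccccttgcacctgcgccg
DTX3L: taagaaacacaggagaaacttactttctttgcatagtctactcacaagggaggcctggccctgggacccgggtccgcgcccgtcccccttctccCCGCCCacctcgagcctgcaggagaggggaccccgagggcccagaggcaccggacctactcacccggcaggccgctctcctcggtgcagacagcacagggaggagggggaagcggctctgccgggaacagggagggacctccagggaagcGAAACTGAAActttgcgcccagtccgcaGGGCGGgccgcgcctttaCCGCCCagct
OAS3 holds 2 such cores and 1 GC box, which directly precedes the second core. DTX3L holds 1 core and 3 GC boxes. The promoter of PARP9 was searched as well and is not shown, since it held no interferon core and no other motif of those searched. That core is in 3.65% of all promoters in the table, and in 3.00% of those of tested genes.

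Among 26 costimulation and checkpoint genes, 14 were higher and 3 lower, 2 of the 26 having at most 3 counts in every azacitidine library, with TNFSF9 (4-1BB ligand) rising from 42.9 ± 2.68 to 116 ± 2.66 CPM and the checkpoint VSIR (VISTA) rising 2.96-fold. CD86, a ligand of CD28 and CTLA4, rose 2.07-fold. Of 27 NF-kB targets, 12 were higher and 5 lower, with a median log2 fold change of 0.09, and 3 of the 27 had at most 3 counts in every azacitidine library and could pass the filter only through other groups. All tested genes had 28.7% higher, 25.1% lower and a median of 0.01, and nothing is read from the NF-kB counts. CD83, a surface marker of activated B cells, rose from 40.7, 39.8 and 37.9 CPM to 109, 115 and 119 CPM, and TNF rose 4.44-fold. EBI3, a subunit of IL-27 and IL-35, had 10 counts over the azacitidine libraries against 771 in the combination. Of 22 migration receptors, 15 were higher and 2 lower (median 0.72), and 2 of the 22 had at most 3 counts in every azacitidine library. The rises included the integrin subunit ITGAM (CD11b), from 0.743, 0.6 and 0.976 CPM to 16.3, 13.9 and 16.3 CPM. Without combination replicate 1 only 1 of them was lower.

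Of 28 immediate early genes, 20 were higher, with a median of 0.98. IER5, an immediate early gene, went from 22.6, 26.5 and 26.6 CPM to 74.2, 69.2 and 74.1 CPM, DUSP5, a phosphatase of ERK, rose 4.21-fold, and ATF3 rose by 2.99 on the log2 scale. KLF2, a factor of resting lymphocytes, rose from 6 ± 0.463 to 22.3 ± 1.87 CPM among 11 KLF genes of which 5 were higher and 4 lower. Clock genes had 4 higher and 5 lower of 13, and 3 lower without combination replicate 3. Nuclear receptors were split, with 8 higher and 8 lower of 21. With 28.7% of all tested genes higher and 25.1% lower, nothing is read from the KLF, clock and nuclear receptor counts. VDR, the vitamin D receptor, rose from 4.14, 3.16 and 3.91 CPM to 18.2, 17.8 and 18.7 CPM, and ESR2, estrogen receptor beta, fell from 34.8, 30.9 and 34.0 CPM to 16.2, 14.2 and 13.4 CPM.

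Of 18 genes of the BCL2 family, which governs cell death, 6 were higher and 3 lower, where 28.7% and 25.1% of all tested genes were called, and nothing is read from these counts. BMF, a BH3-only activator of apoptosis, rose from 11, 11.6 and 11.9 CPM to 47.7, 47.1 and 47.8 CPM, and PMAIP1 (NOXA), another, rose 1.87-fold. The pro-survival BCL2A1 rose by 1.71 on the log2 scale and the BH3-only BID fell by 0.58. Of 27 p53 targets, 11 were higher and 7 lower, with a median log2 fold change of 0.06. BTG2, an antiproliferative gene, rose from 85.1 ± 2.13 to 222 ± 18.2 CPM, and the p53 target AEN fell by 0.58.

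The metabolic lists stand beside 28.7% higher and 25.1% lower over all tested genes, with 48.0% lower at 50 CPM or more. Nothing is read from the glycolysis and ATF4 counts. Cholesterol synthesis had 17 of 29 genes higher and 3 lower (median 0.23), among them DHCR7, which makes cholesterol in the last step of the pathway, from 132, 125 and 124 CPM to 186, 187 and 181 CPM. In the list of glycolysis and hypoxia genes, 8 were higher and 13 lower of 29: LDHA, which makes lactate, went from 2227, 2027 and 1853 CPM to 1190, 1307 and 1250 CPM, and GPI, an early enzyme, fell 1.63-fold. DDIT4, an inhibitor of mTORC1, rose 6.22-fold from 4.83, 4.47 and 4.20 CPM, in a list of 30 ATF4 targets with 9 higher and 13 lower. PSAP, the precursor of lysosomal saposins, rose from 551 ± 4.72 to 1395 ± 33.2 CPM, and 14 of 32 lysosome and autophagy genes were higher and 4 lower. Nuclear genes of oxidative phosphorylation had 24 of 46 lower and 1 higher (2 higher without combination replicate 3). Mitochondrially encoded messenger RNAs had 6 of 13 higher, a count that rests on single libraries: 13 were higher without azacitidine replicate 1, but 3 without azacitidine replicate 2, azacitidine replicate 3 or combination replicate 3. Their share of all counts, given above, moved with it.

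The largest rises started from levels near 0. PRAME, a cancer-testis antigen, had 0 counts in all 3 azacitidine libraries and stood at 9.88, 12.7 and 12.4 CPM in the combination, at least 140-fold higher. ALDH1A1, a retinaldehyde dehydrogenase, had 6 counts over the azacitidine libraries and 1137 in the combination, and ERBB3, a receptor of the EGFR family, 13 and 1124. CCM2L, CAVIN1, PDGFRB, COL1A1, CX3CR1 and CLEC7A rose by 5.10 to 6.56 on the log2 scale. CLEC7A (dectin-1), a receptor for fungal glucans, went from 0.457, 0.327 and 0.108 CPM to 9.47, 9.58 and 11.6 CPM. Of 50 cancer-testis genes listed, 9 could be tested, of which 7 were higher and 1 lower. Of the 9, 2 had at most 3 counts in every azacitidine library and could pass the filter only through other groups. The single fall was lost without azacitidine replicate 1, azacitidine replicate 3 or combination replicate 3. Among 1161 long non-coding genes, 394 were higher (33.9%) and 109 lower (9.39%). Among 12411 coding genes, 3839 were higher (30.9%) and 3970 lower (32.0%). Antisense genes had 19.8% higher and 9.39% lower, and all tested genes 28.7% and 25.1%. Genes of any class between 0.5 and 5 CPM had 35.8% and 8.94%, and the classes were not compared by level.

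Genes named for other cell types moved along with these. Of 18 tested T and NK cell genes, 13 were higher and 4 lower, and of 17 monocyte and granulocyte genes 12 were higher and 1 lower. 1 gene of the first list and 2 of the second had at most 3 counts in every azacitidine library. The single monocyte and granulocyte gene called lower was lost without azacitidine replicate 3 or combination replicate 3. The T and NK markers fixed for this check summed to 107 to 116 CPM with azacitidine and to 241 to 256 CPM in the combination. TRAC, the T-cell receptor alpha constant region, made up most of it, from 118, 103 and 107 CPM to 231, 247 and 231 CPM. CD3E rose from 1.55 ± 0.313 to 9.03 ± 0.744 CPM, CD3G rose, CD3D rose to at most 0.471 CPM, and CD8A had 0 counts throughout. Monocyte and granulocyte markers summed to 0.139 to 0.389 CPM and then 2.59 to 3.35 CPM, with LYZ rising, CD14 at 0.00 (log2, adjusted p 0.997) and S100A8 at 0 in all 6 libraries. Fibroblast markers went from 0.166 to 0.221 CPM up to 5.06 to 7.39 CPM, nearly all of it COL1A1, while COL1A2 was at 0. Endothelial markers summed to 73.8 to 77.2 CPM and then to 81.3 to 90.6 CPM, all of it PECAM1 (CD31), which leukocytes also express and which rose by 0.19 (adjusted p 0.00709), with VWF and CDH5 at 0. Epithelial markers summed to at most 0.111 CPM and red-cell markers to 0. Of the B-cell markers, MS4A1 rose by 0.56 and CD79B by 0.43 on the log2 scale. What part these genes have in the rises above was not tested.

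Among genes with at least 5 CPM in the higher group and no overlap of libraries, the largest falls were smaller than the largest rises. Over all tested genes log2 fold changes ran from -3.39 to 11.7. DBH, which converts dopamine to noradrenaline, went from 5.11, 5.76 and 6.54 CPM to 1.95, 1.60 and 2.19 CPM. Its neighbour SARDH, a mitochondrial sarcosine dehydrogenase, went from 39.3, 38.2 and 37.3 CPM to 14.6, 13.5 and 13.7 CPM (log2 -1.46, SE 0.07). PRKAR2B, a regulatory subunit of protein kinase A, fell 2.24-fold from 98.5, 111 and 107 CPM, and RAB40B, a small GTPase, 2.25-fold from 12.8, 13.3 and 15.8 CPM. For each of these genes all 3 combination libraries were below all 3 azacitidine libraries. KCNA6, CLEC2D, CLK4, ZNF441, PPP4R3A and the histone gene H2BC11 fell by 1.04 to 1.15 on the log2 scale.

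**Figure D3:**
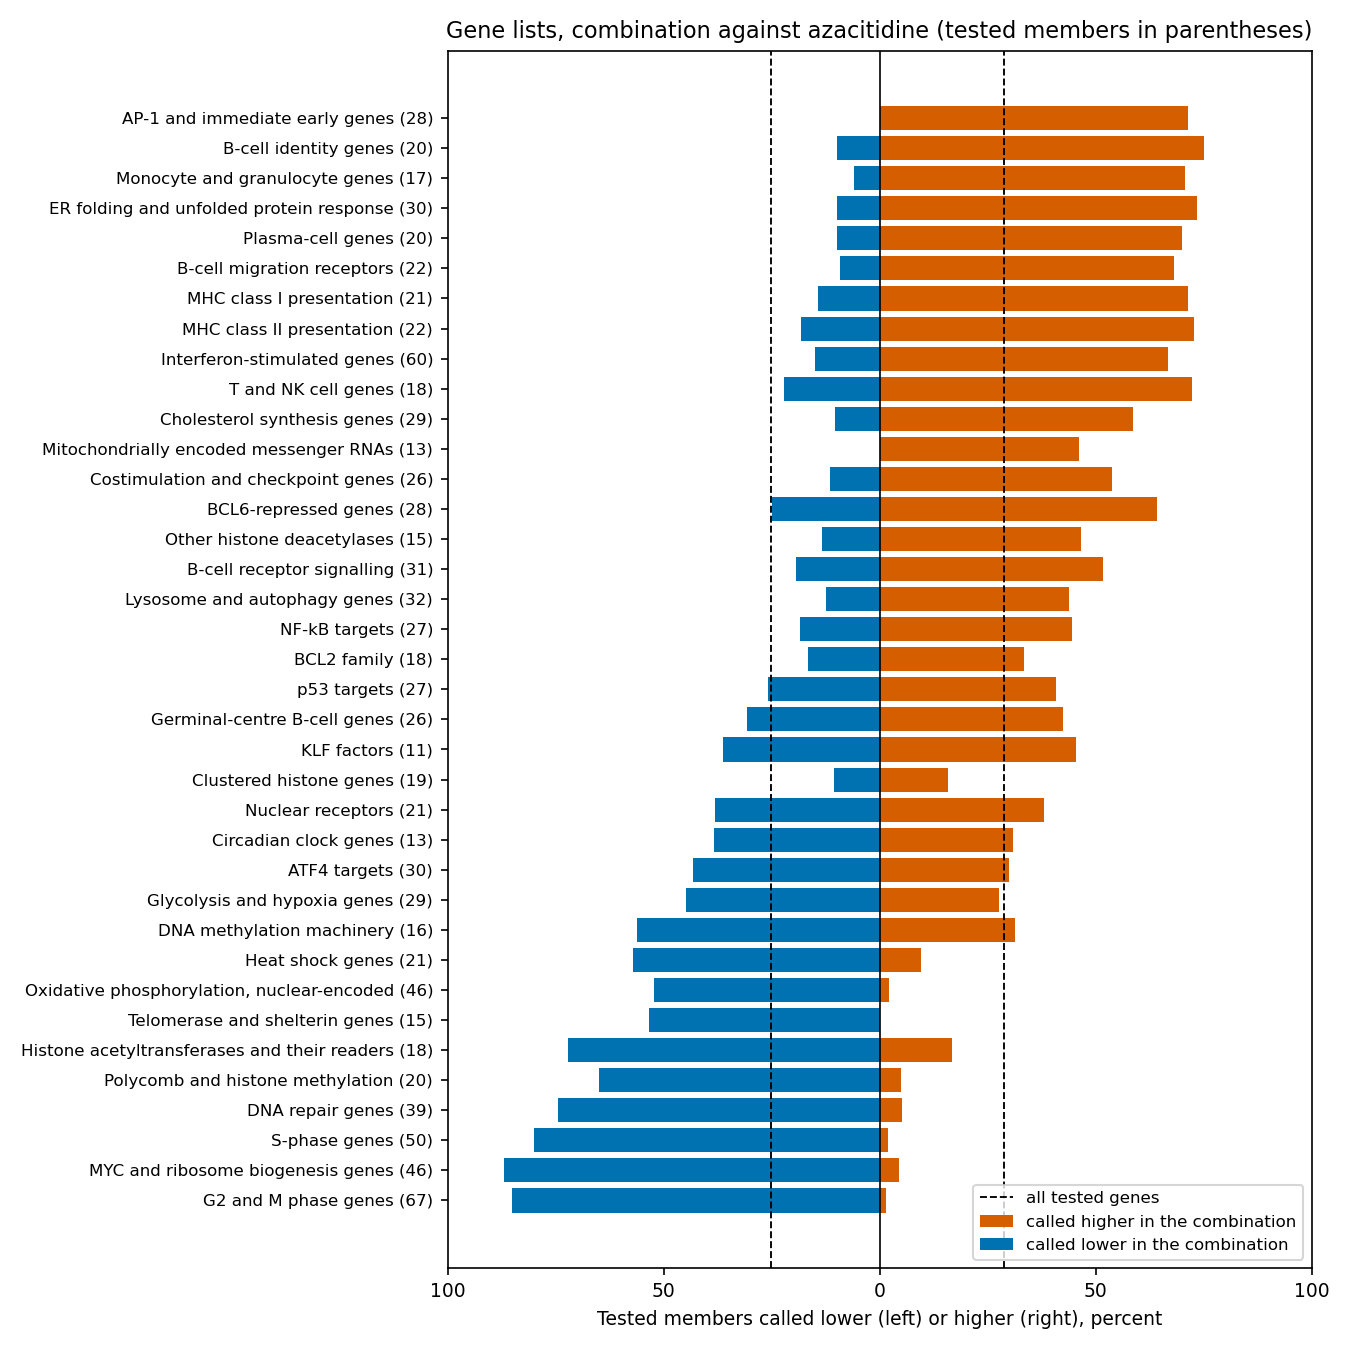
Share of the tested members of each list called higher (right) or lower (left) in the combination (x axis, percent), for lists of 10 tested members or more (y axis, number tested in parentheses). Dashed lines mark the shares over all tested genes, 28.7% higher and 25.1% lower. MYC and ribosome, G2 and M, S-phase and DNA repair genes lie at one end. Immediate early, B-cell identity, monocyte and granulocyte, and endoplasmic reticulum genes lie at the other.

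Promoters of genes that rose at least 2-fold were poorer in CpG pairs. 1344 of them had an entry in the RefSeq table, with a median of 19 CpG pairs in 300 bases (quartiles 5 and 31), against 26 (quartiles 17 and 34) in the 11182 promoters of tested genes and 26 in the 572 promoters found among the 952 genes (5.33%) that fell at least 1.5-fold. GC boxes were present in 56.9% of the promoters that rose, 69.2% of those that fell and 67.8% of all tested. The TATA box (TATAAA) was present in 10%, 5.77% and 6.02%. The AP-1 site (TGANTCA) was present in 6.99%, 2.97% and 4.55%, the CRE (TGACGTCA) in 1.64%, 4.55% and 3.32%, the CCAAT box in 32.2%, 39.7% and 37.1%, and the interferon core in 4.69%, 2.97% and 3.00%. In all 27305 promoters of the table the median was 14 CpG pairs and 44.6% held a GC box. These shares carry no test, and promoters were not compared by expression level.

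Most genes that changed on top of azacitidine changed the same way with the inhibitor alone. The 2 contrasts share no library. Inhibitor against vehicle called 9166 genes (51.3%), 4712 of them higher (26.4%) and 4454 lower (24.9%). Of the 5123 genes higher in the combination, 4023 (78.5%) were also higher with the inhibitor alone, which is 85.4% of those higher there, and 7 were lower there. Of the 4491 lower genes, 3491 (77.7%) were also lower with the inhibitor alone, which is 78.4% of those, and 4 were higher. Across the 17869 genes, which are not independent replicates, Pearson's r between the log2 fold changes was 0.887, Spearman's rho 0.821 and the slope 0.903. Among the 10014 genes at 5 CPM or more r was 0.944 and the slope 0.968. With no filter on low counts r was 0.383.

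**Figure D4:**
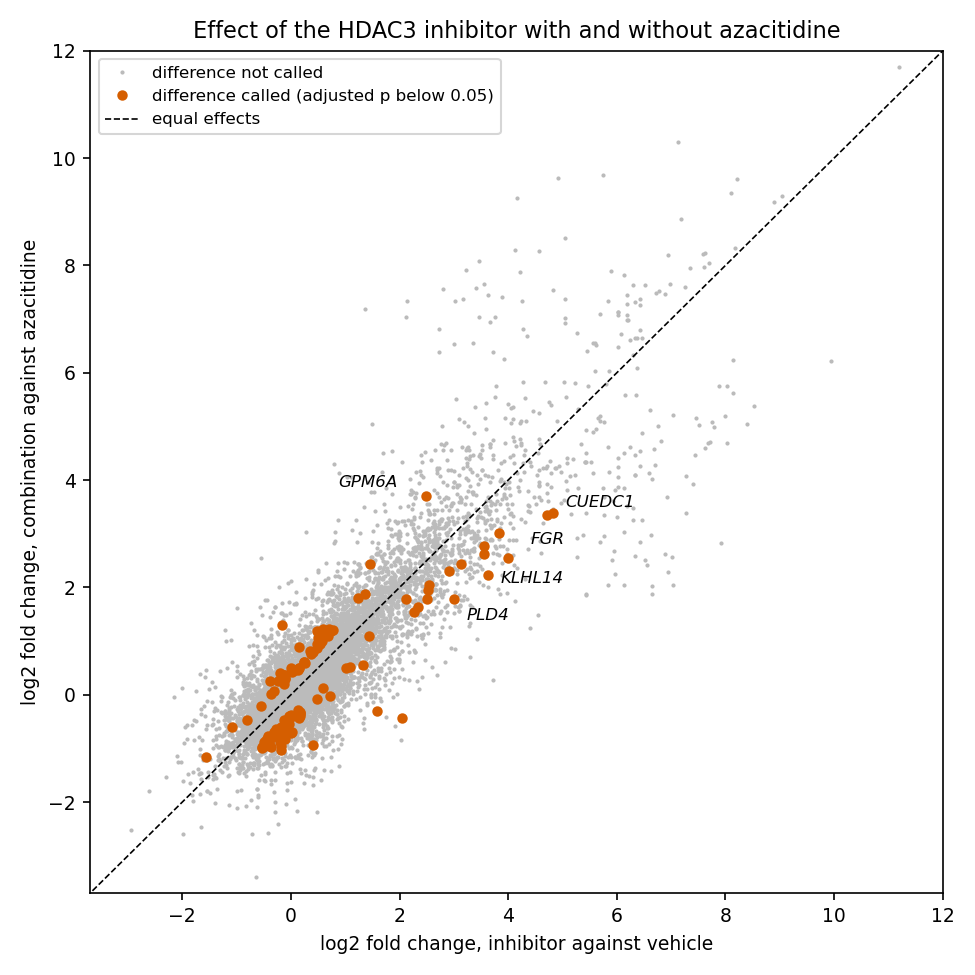
Log2 fold change of each tested gene for combination against azacitidine (y axis) and for inhibitor against vehicle (x axis), with the line of equal effects dashed. Genes whose effects differed by the interaction test are in colour, 47 above the line and 81 below it.

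The difference between the 2 effects was tested directly as an interaction in the same fit. It was called for 128 genes (0.716%), 47 with a more positive effect on top of azacitidine (0.263%) and 81 with a more negative one (0.453%). The number depends on the libraries. It was 689 without combination replicate 2 and 193 without azacitidine replicate 1, 89 without vehicle replicate 2, and 35 to 71 without any other single library. Among the named interaction genes, followed through 23 other settings, FGR, CUEDC1, KLHL14, PLD4, FCER2 and FCGR2B held the call in all 23. Each of these 6 had a higher mean with azacitidine than with vehicle and a smaller fold change with the inhibitor on top of azacitidine.

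FGR, a kinase of the SRC family, was at 2.57 ± 0.556 CPM with vehicle, 67.7 ± 4.14 with the inhibitor, 8.28 ± 0.456 with azacitidine and 84.3 ± 1.98 in the combination (SD, n = 3 in each group). The inhibitor effect was 4.72 on the log2 scale without azacitidine and 3.35 with it, a difference of -1.37 (SE 0.13, adjusted p 2.10e-06). CUEDC1, a CUE-domain protein, went from 0.600 to 17.2 CPM without azacitidine and from 2.55 to 26.7 CPM with it (difference -1.45, SE 0.21). KLHL14, an adaptor of a ubiquitin ligase that limits B-cell receptor levels, went from 0.720 to 8.95 CPM and from 1.86 to 8.76 CPM, so that its means with the inhibitor differed by less than the SD. PLD4, a lysosomal nuclease, went from 1.12 to 8.95 CPM and from 4.48 to 15.5 CPM. FCER2 went from 11.9 to 90.6 CPM and from 23.7 to 116 CPM (difference -0.63), and FCGR2B from 16.5 to 94.9 CPM and from 26.0 to 101 CPM (difference -0.56).

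GPM6A, a membrane glycoprotein of neurons, had the opposite difference. It was at 2.50 ± 0.138 CPM with vehicle, 14.1 ± 1.09 with the inhibitor, 0.873 ± 0.317 with azacitidine and 11.5 ± 1.22 in the combination, so the inhibitor effect was 2.49 and then 3.71 on the log2 scale (difference 1.21, SE 0.23, adjusted p 0.00894). That call was lost without azacitidine replicate 2 (adjusted p 0.0648). PARP9 had a difference of -0.93, which was lost without vehicle replicate 3 (adjusted p 0.0794). CDKN1A rose from 0.995 to 33.9 CPM with the inhibitor alone, an effect of 5.08 against 4.42 with azacitidine, and that difference did not pass (-0.66, SE 0.19, adjusted p 0.0956).

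**Figure D5:**
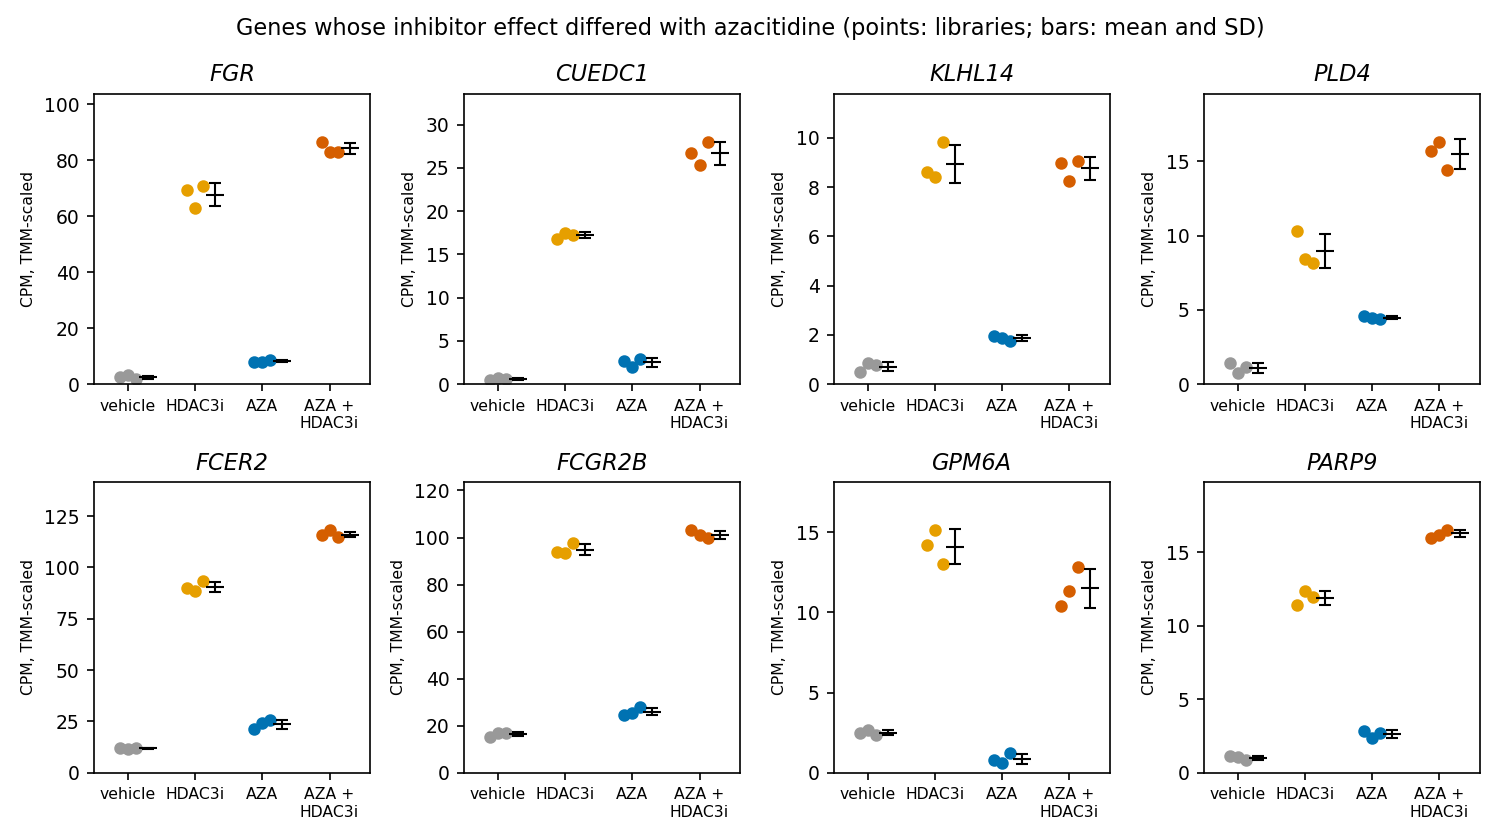
Levels of 8 genes (y axis, TMM-scaled CPM) in the 3 libraries of each of the 4 groups (x axis: vehicle, HDAC3 inhibitor, azacitidine, both), with the mean and SD beside the points. FGR, CUEDC1, PLD4, FCER2 and FCGR2B are higher with azacitidine than with vehicle and highest in the combination, and so is PARP9, while GPM6A is lowest with azacitidine.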

How the data were processed

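Poly(A) RNA of 12 OCI-Ly7 libraries was counted by the authors with featureCounts 2.1.1 against the Ensembl 114 annotation of GRCh38, with multiply mapped reads split as fractions of a count and no strand option, per the file headers. STAR 2.7.11b and cutadapt 5.1 are named in the submitters' processing notes. The deposited table therefore holds expected counts per gene. 96.86% of values were whole (tolerance 1e-06), and all were rounded to whole numbers here. Of 16 libraries named in the header, 12 are described and the rest were not analysed here. Symbols for 61461 genes came from a table of gene names.

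All 12 libraries, grouped by title, were fitted together with edgeR 4.0.16 (R 4.3.3): filterByExpr on the 4 groups, TMM scaling, 1 mean per group, the quasi-likelihood F-test, two-sided, and Benjamini-Hochberg adjustment over 17869 genes, which held 99.93% of counts. The contrasts were combination minus azacitidine, inhibitor minus vehicle, and their difference (the interaction). Fold changes are the fitted ones, the SE is the log2 fold change divided by the square root of F, and CPM are TMM-scaled except in sums over markers and shares of libraries. The biological coefficient of variation was 6.05%. Counts were also simulated with equal means in all 4 groups, except for small sets of genes changed in the combination. Of the 50 genes changed 2-fold there, the first contrast recovered 78.0% and the interaction 66.0%. In the data 53.8% of genes were called, so these shares do not give the power of the contrasts here. The precision of counting is set by totals of 35947872 to 36337086, with 3 counts as the floor, and covers counting error only.

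Named genes were the 14 largest rises and 14 largest falls (at least 5 CPM, no overlap of libraries, no antisense genes), a set of regulators, up to 4 members of smallest p in each gene list, and the 5 largest interactions in each direction. Members and lists were chosen with earlier results of these data known. Promoters of 11182 tested genes were matched to RefSeq (GRCh38.p14) by gene identifier, or by symbol where the identifier had no entry. The alternatives were other scaling factors and filters, DESeq2 1.42.0, fewer libraries and a replicate block, plus a GC offset chosen after seeing the data, which used transcripts of GENCODE 29 and covered 89.5% of tested genes. Some genes that this rule names are not reported here.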

Additional observations from a re-analysis of the deposited data

Results flagged for a closer look

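The inhibitor effect on top of azacitidine differed from its effect without azacitidine, by the interaction test, for the genes given here. The values are log2 differences, negative where the fold change was smaller on top of azacitidine. CUEDC1 (-1.45), KLHL14 (-1.40), FGR (-1.37), PLD4 (-1.21), FCER2 (-0.63) and FCGR2B (-0.56) were called in all 23 other settings. GPM6A (1.21) and PARP9 (-0.93) were each called in 22 of them, and PRKAR2B, a subunit of protein kinase A that fell less on top of azacitidine (0.40), in 19.

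The other differences were less stable. PARP15, of the same family as PARP9, differed by -1.45 and was called in 15 settings. XBP1 (-0.34) and the kinetochore gene NUF2 (-0.42) were called in 14 each, the BH3-only gene BMF (-0.51) and the desaturase SCD (0.36) in 13, and the bromodomain gene ATAD2 (-0.37) and ARID5A (0.60) in 11. ABAT (0.71), a GABA transaminase, was called in 8, AAK1 (0.75), an adaptor kinase, in 6, and GGT7 (0.98) in 6 of the 22 settings that tested it. What sets these differences apart was not tested.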

How the results depend on the processing

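The 9614 genes called in combination against azacitidine ranged from 8915 to 9772 when 1 library was left out at a time. Keeping only genes with 5 CPM in 3 or more libraries, and so fewer genes, left 3388 higher genes, with 615 higher and 14 lower by 2-fold, and 3019 higher genes for inhibitor against vehicle. The labels do not say whether a replicate number marks a shared culture, and the correlations of deviations are too few to settle it. Azacitidine and combination libraries of the same title number correlated at 0.0812, 0.375 and -0.165. The last pair carries different numbers in its library names. Azacitidine replicate 2 correlated best with its own number, and azacitidine replicates 1 and 3 did not. With the title number as a replicate block 9551 genes were called, and with the number in the library names 9439.

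The count of 128 interaction genes changed most. It was 314 without a filter (73 higher, 241 lower), 204 with the 5 CPM filter (135 lower), 379 with DESeq2 (104 higher, 275 lower), 134 with the title block and 227 with the library-name block (166 lower). Higher genes numbered 24 with library totals as the scale, 26 with the GC offset and 28 without azacitidine replicate 1 and combination replicate 3 together, and lower genes 123 with DESeq2's size factors in edgeR. Leaving out 1 library gave 35 to 689, with 10 to 188 higher and 20 to 501 lower, the most without combination replicate 2 and the fewest in all without azacitidine replicate 2 or combination replicate 1. The cause was not tested.

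Pearson's r of 0.887 was 0.383 without a filter, 0.953 with the 5 CPM filter, 0.853 to 0.869 without 1 library and 0.854 without azacitidine replicate 1 and combination replicate 3. BCL6 changed sign without azacitidine replicate 3 (-0.01) and was at most 0.08 (without azacitidine replicate 1), not called in either. Genes near 3 counts per library are limited by depth.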

Other observations

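Differences in level between the combination and the inhibitor alone were not tested here. CDKN1A averaged 63.5 ± 2.64 CPM in the combination and 33.9 ± 3.07 CPM with the inhibitor alone (SD, n = 3 in each group). BMF averaged 47.5 ± 0.383 and 28.8 ± 1.22 CPM, CCR7 13.1 ± 1.22 and 7.79 ± 0.541 CPM, and EBI3 7.12 ± 0.124 and 3.42 ± 0.807 CPM. BCL6 averaged 223 ± 9.35 CPM in the combination and 210 ± 3.56 CPM with the inhibitor alone, after 219 ± 12.9 with azacitidine and 237 ± 5.61 with vehicle.

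Long non-coding genes differed from coding genes mostly in the share of falls, with 33.9% higher and 9.39% lower against 30.9% and 32.0%. These classes were not compared by expression level. By chromosome, the share of tested genes called higher ran from 19.2% on chromosome 18 (44 of 229) to 34.8% on chromosome 22 (184 of 529), among chromosomes 1 to 22 and X.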
